A study of Homo sapiens with 12 samples.

Results

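ACKR3, CXCR4 and CXCL12, a pair of chemokine receptors and the ligand they share, were followed through RNA-seq of erastin-exposed prostate cancer cells. The 3 genes were matched by symbol and gene identifier among 58735 genes of the table for the line LNCaP and 61221 genes of the table for the line PC3, which share 58503 identifiers. They were chosen by the measured ACKR3 response, FPKM under erastin against DMSO, which ran in opposite directions in the lines. Their erastin and DMSO levels are therefore a description, and no p-value is given for them. The groups were LNCaP cells under erastin at 5 µmol/L, LNCaP cells under DMSO, PC3 cells under erastin at 5 µmol/L and PC3 cells under DMSO, each with 3 libraries, and every library was labelled as wild type. Erastin blocks the cystine importer system xc- and serves as a trigger of ferroptosis, an iron-dependent cell death, and DMSO is its solvent. LNCaP is an androgen-responsive line from a lymph node metastasis, and PC3 an androgen-independent line from a bone metastasis. Both are established lines kept in culture, without the stroma that supplies CXCL12 in a tissue. Neither the exposure time nor whether the 3 libraries of a group were separate cultures is known from the labels, so spreads and p-values describe these libraries and may be technical.

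CXCL12 is a chemokine secreted by stromal cells, bone marrow stroma among them. CXCR4 is its conventional receptor: it couples to inhibitory G proteins, steers migrating cells up a CXCL12 gradient, and has been studied as a guide of prostate cancer cells to bone. ACKR3, also called CXCR7, is an atypical chemokine receptor that binds CXCL12 and CXCL11, recruits arrestins rather than driving classical G protein signalling, and takes up and degrades its ligands.

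Each LNCaP library held 14047979 to 17668554 recovered reads, and each PC3 library 13709558 to 16350657. PC3 DMSO replicate 1 stood apart from the other two: over genes, the chi-square per degree of freedom of its reads was 57.9 and 86.7 against DMSO replicates 2 and 3, which differed from each other by 7.33. Replicate 3 of either LNCaP group also stood apart, with 24.4 and 41.4 against the other erastin libraries and 64.6 and 41.7 against the other DMSO libraries. CTNNA1, known as deleted wholly or in part in PC-3 cells, had reads in the libraries labelled PC3, with 5.92, 6.61 and 6.18 FPKM there under erastin and 56.7, 50.6 and 51.2 FPKM under DMSO. "PC3" below therefore means the libraries labelled PC3. All 8 LNCaP line markers listed averaged at least 1 FPKM in LNCaP, and all 8 PC3 line markers in PC3. Their sums were lower under erastin, at 477 to 487 against 1171 to 1256 FPKM under DMSO in LNCaP, and at 347 to 379 against 1070 to 1543 FPKM under DMSO in PC3. All 6 markers of simple epithelium, the keratins KRT8 and KRT18 among them, were lower under erastin in PC3 without overlap. Their sum was 81.3 to 86.1 FPKM under erastin and 1116 to 1800 FPKM under DMSO. Among all genes at 1 FPKM or more in 3 or more PC3 libraries, the groups did not overlap for 71.9%. Genes above 0 numbered 30239 to 31311 in the PC3 erastin libraries and 25679 to 26144 in the PC3 DMSO libraries. The part of these shifts in the results that follow was not tested.

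ACKR3 was low under erastin in LNCaP and high under erastin in PC3. The gene lies on the plus strand of chromosome 2 of hg38, from 236567787 to 236582358 in the annotation of the LNCaP table and to 236582354 in that of the PC3 table, as ENSG00000144476. In LNCaP it measured 14.1, 13.5 and 15.7 FPKM under erastin and 62.5, 75.6 and 88.3 FPKM under DMSO, from 552 to 629 and from 2114 to 3043 reads per library. All 3 erastin libraries lay below all 3 DMSO libraries. The means were 14.4 ± 1.16 FPKM under erastin and 75.5 ± 12.9 FPKM under DMSO (SD, n = 3 each), a 5.23-fold lower level and a log2 difference of -2.30 ± 0.16 on the log2(FPKM + 1) scale (limma SE). In bulk RNA, fewer cells with a transcript and less transcript per cell cannot be told apart.

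In PC3, ACKR3 measured 28.9, 27.5 and 26.1 FPKM under erastin and 0.692, 0.769 and 0.824 FPKM under DMSO. The erastin libraries held 815 to 869 reads of it and the DMSO libraries 20 to 24. The groups did not overlap. Across the 12 libraries, in tables scaled separately, the levels ran from PC3 under DMSO (lowest) through LNCaP under erastin and PC3 under erastin to LNCaP under DMSO (highest), and the ranges of neighbouring groups did not overlap. The means were 27.5 ± 1.39 FPKM under erastin and 0.762 ± 0.0661 FPKM under DMSO (SD, n = 3 each), a ratio of 36.1 and a log2 difference of 4.01 ± 0.11 (limma SE). ACKR3 passed the expression filter in PC3 (1 FPKM or more in 3 or more of a line's 6 libraries) through its 3 erastin libraries alone. Over all genes kept, the groups did not overlap for 46.5% of genes in LNCaP and 71.9% in PC3. Nothing is read from these shares, since ACKR3 was chosen for this contrast.

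Ranked by mean FPKM among protein-coding genes, ACKR3 stood at 3052 of 19951 in LNCaP under erastin and at 473 under DMSO. In PC3 it stood at 1546 of 19968 under erastin and at 11667 under DMSO. The LNCaP response minus the PC3 response was -6.31 ± 0.19 on the log2(FPKM + 1) scale (limma SE, untested, since the gene was chosen for it). Of 11823 genes kept in both lines, 64 had a log2 difference of -1 or below in LNCaP and of 1 or above in PC3, and 60 of these had no overlap of groups in either line. ACKR3 is also expressed by endothelium, whose 8 listed markers summed to 16.8 to 25.3 FPKM under erastin and 13.9 to 24.6 FPKM under DMSO in LNCaP, nearly all of it EGFL7. In PC3 they summed to 11.4 to 12.7 FPKM under erastin and 37.9 to 44.0 FPKM under DMSO. Of the 8 markers, 3 were higher and 3 lower without overlap, where 71.9% of all genes kept had no overlap. Most of the DMSO sum was KDR, a receptor of vascular growth factor, at 28.9 FPKM. Under erastin KDR was at 4.17 FPKM and ESAM, another of the markers, at 4.95 FPKM. CDH5, the endothelial cadherin, had 2 reads over the 3 erastin libraries and 0 over the DMSO libraries of LNCaP, and 6 reads under erastin and 0 under DMSO in PC3.

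**Figure D1:**
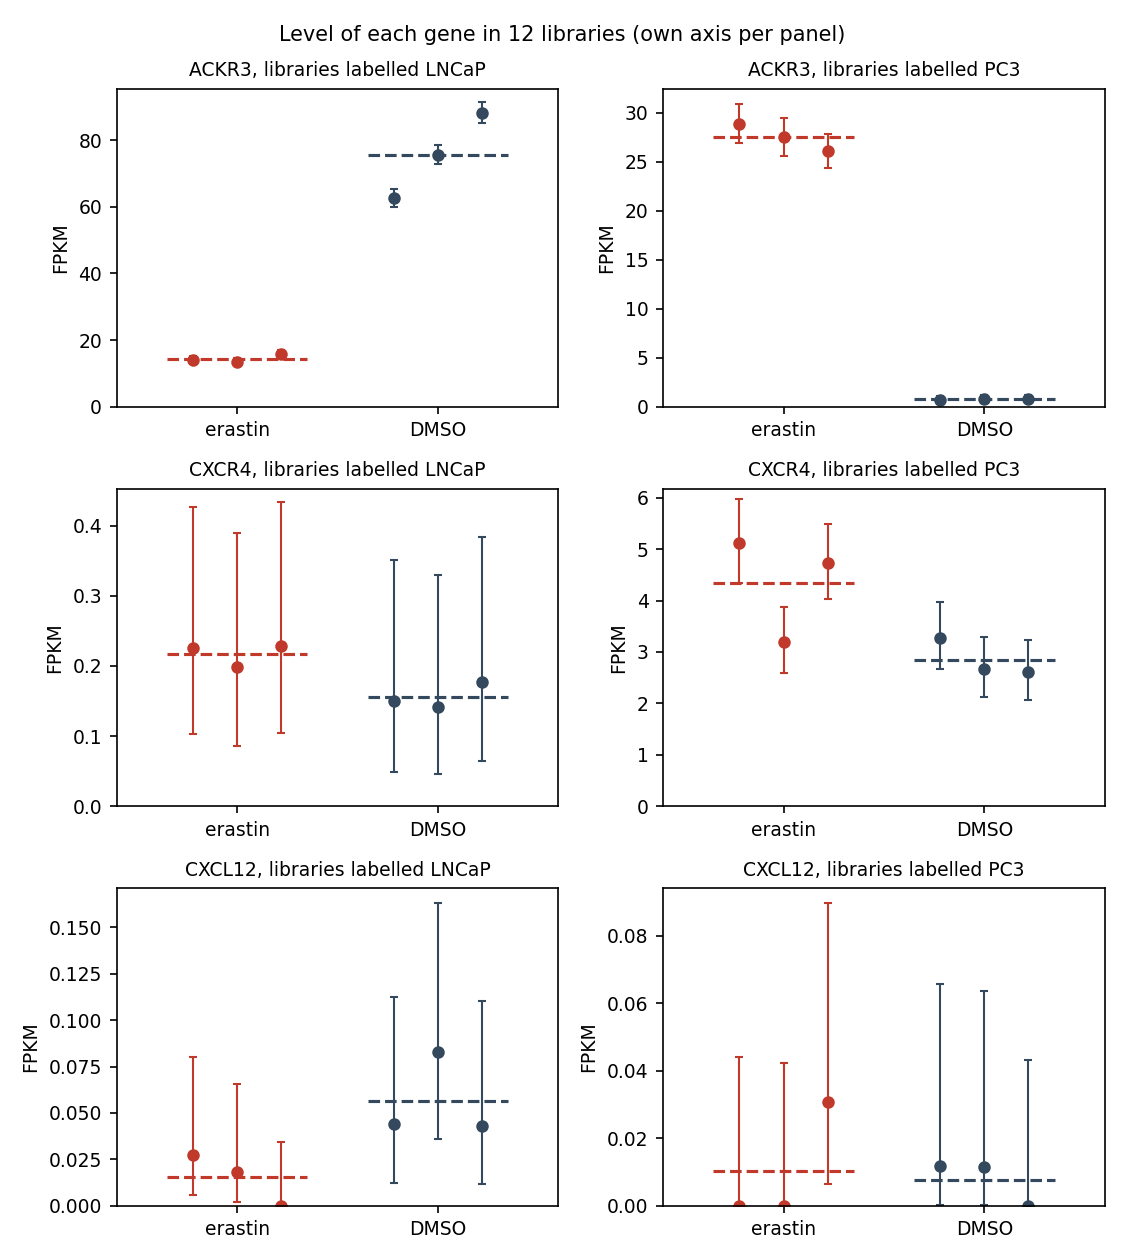
FPKM of ACKR3, CXCR4 and CXCL12 (rows) in libraries labelled LNCaP (left) and PC3 (right), with each panel on its own axis. Points are libraries, vertical lines exact 95% Poisson intervals of their reads (counting error only), and dashed lines group means of 3 libraries. ACKR3 averaged 14.4 FPKM under erastin and 75.5 FPKM under DMSO in LNCaP, and 27.5 FPKM under erastin and 0.762 FPKM under DMSO in PC3.

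CXCR4 was near the detection floor in LNCaP and measurable in PC3, where it averaged 1.52 times as much under erastin as under DMSO with overlapping groups. It lies on the minus strand of chromosome 2 of hg38, as ENSG00000121966, from 136114349 to 136118165 in the LNCaP table and to 136118149 in the PC3 table. In LNCaP it measured 0.225, 0.198 and 0.228 FPKM under erastin and 0.1502, 0.141 and 0.177 FPKM under DMSO, from 8 to 9 and from 5 to 6 reads per library. The group values did not overlap, but the exact 95% Poisson intervals of single libraries did. Their outer limits were 0.0855 to 0.434 FPKM over the erastin libraries and 0.0459 to 0.385 FPKM over the DMSO libraries. Such limits cannot show whether the groups differ, so no difference is read at this depth. The reads of a whole group, 26 under erastin and 16 under DMSO, were not tested. The gene stayed under the filter of 1 FPKM in all 6 LNCaP libraries.

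CXCR4 measured 5.11, 3.19 and 4.73 FPKM in PC3 under erastin and 3.28, 2.66 and 2.61 FPKM under DMSO. Erastin replicates 1 and 3 lay above every DMSO library, and erastin replicate 2 lay just below DMSO replicate 1. The interval of erastin replicate 2, 2.60 to 3.88 FPKM, did not reach those of erastin replicate 1 (4.34 to 5.98 FPKM) or erastin replicate 3 (4.04 to 5.50 FPKM), so the spread within the group exceeded counting error. The means were 4.34 ± 1.02 FPKM under erastin and 2.85 ± 0.371 FPKM under DMSO (SD, n = 3 each), a log2 difference of 0.46 ± 0.18 (limma SE). It ranged from 0.35 without erastin replicate 1 to 0.62 without erastin replicate 2. Across the separately scaled tables, CXCR4 was higher in all 6 PC3 libraries than in all 6 LNCaP libraries. The treatment groups overlapped in PC3 and, in LNCaP, only in the Poisson intervals of single libraries. CXCR4 is abundant in leukocytes, whose 8 listed markers summed to 7.23 to 9.34 FPKM under erastin and 5.58 to 6.66 FPKM under DMSO in PC3. Of these 8, 4 were higher without overlap, where 71.9% of all genes kept in PC3 had no overlap. They were CD79A (1.49 FPKM under erastin, 0.158 under DMSO), CD14 (1.33 and 0.227), CORO1A (0.837 and 0.275) and SPI1 (0.706 and 0.0459). PTPRC, the pan-leukocyte antigen CD45, had 2 reads over the 3 erastin libraries and 11 over the 3 DMSO libraries, and CD3E, a T cell receptor chain, 1 read under erastin and 0 under DMSO.

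The start-site region of CXCR4 is printed because NRF-1, a transcription factor described as an activator of CXCR4, was measured in both lines. It is the RefSeq promoter on GRCh38.p14, chr2:136118100-136118399, minus strand, 250 bases before and 50 after the start, written 5′ to 3′ with the NRF-1 motif in capitals.
CXCR4: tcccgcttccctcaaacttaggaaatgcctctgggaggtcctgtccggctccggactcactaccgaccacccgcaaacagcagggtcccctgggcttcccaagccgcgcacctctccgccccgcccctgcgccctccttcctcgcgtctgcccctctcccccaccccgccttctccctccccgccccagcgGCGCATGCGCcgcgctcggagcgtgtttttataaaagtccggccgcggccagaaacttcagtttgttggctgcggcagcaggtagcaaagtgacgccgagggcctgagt
The NRF-1 motif was searched as GCGCATG on both strands. It had 2 matches, 1 per strand, which overlap in the 10 bases in capitals, and the first base lies at base 192, 59 bases before the start. These letters are held by 4.43% of 35116 promoters of this length. The motif TATAAAA, searched on both strands, had 2 overlapping matches and is held by 4.52% of promoters. ACGTG, a form of the hypoxia response element core, had 0 matches on either strand and is held by 21.4% of promoters. The form GCGTG was not searched, and the printed letters hold it. The motifs were chosen after the sequence was seen, and a match describes letters only. NRF1, the gene of that factor, fell in LNCaP, with 3.60, 3.32 and 4.39 FPKM under erastin and 6.19, 5.84 and 6.92 FPKM under DMSO, a log2 difference of -0.62 (limma, Benjamini-Hochberg adjusted p = 0.0106), although without LNCaP erastin replicate 1 the adjusted p was 0.055. It also fell in PC3, with 8.58, 9.32 and 9.98 FPKM under erastin and 14.2, 12.4 and 13.1 FPKM under DMSO, a log2 difference of -0.47 (limma, adjusted p = 0.00998), and lost the call without PC3 erastin replicate 1 (-0.42, limma adjusted p = 0.0514), under protein-coding scaling (-0.27, limma adjusted p = 0.0696) and with the replicate block (limma adjusted p = 0.063). In these PC3 libraries CXCR4 averaged more under erastin than under DMSO, with overlapping groups. A link between NRF1 and CXCR4 was not tested.

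Per unit of gene length, ACKR3 exceeded CXCR4 in every library except those of PC3 under DMSO. In LNCaP the ratio of ACKR3 to CXCR4 FPKM was 62.8, 68.0 and 68.8 under erastin and 416, 535 and 500 under DMSO, with few CXCR4 reads behind each. In PC3 the ratio was 5.64, 8.61 and 5.52 under erastin and 0.211, 0.289 and 0.316 under DMSO, where CXCR4 exceeded ACKR3 3.16 to 4.73 times. The order of the receptors was thus opposite in the PC3 groups and the same in the LNCaP groups. The receptors' FPKM together came to 14.4, 13.7 and 15.96 under erastin and 62.7, 75.8 and 88.4 under DMSO in LNCaP. In PC3 they came to 34.0, 30.7 and 30.8 under erastin and 3.97, 3.43 and 3.43 under DMSO. Since the tables were made with different annotations and scaled separately, levels were not tested between lines.

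**Figure D2:**
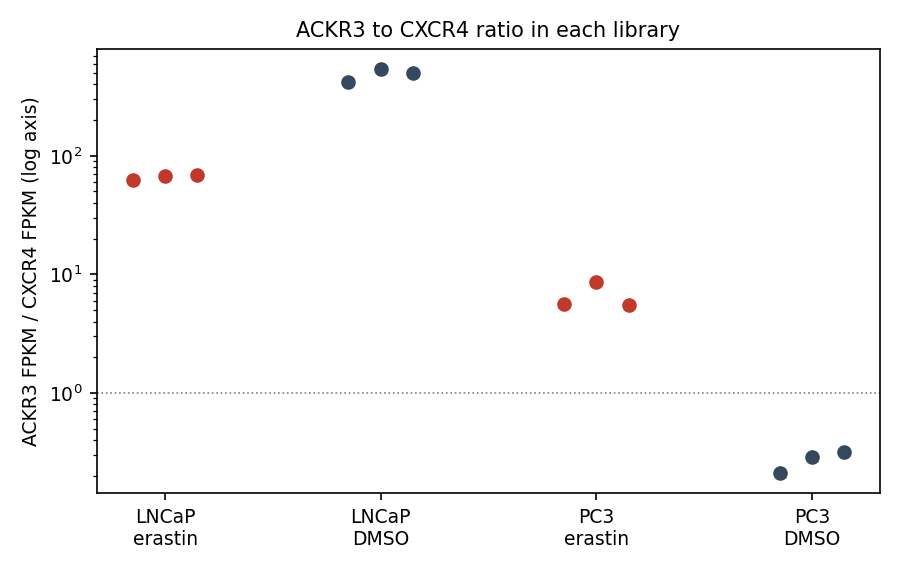
Ratio of ACKR3 FPKM to CXCR4 FPKM in each of 12 libraries, on a log axis, by line and treatment. Each point is a library and the dotted line marks equal levels. The PC3 DMSO libraries, at 0.211 to 0.316, are the only ones below that line.

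CXCL12 was at the edge of detection in both lines. The gene, ENSG00000107562, spans 44370165 to 44386493 on the minus strand of chromosome 10 of hg38. LNCaP libraries held 3, 2 and 0 reads of it under erastin and 4, 8 and 4 reads under DMSO, or 0.0274, 0.0181 and 0 FPKM under erastin and 0.0440, 0.0828 and 0.0431 FPKM under DMSO. The erastin libraries were at or under the 3 reads that a count of 0 allows, and the DMSO libraries were above it. Poisson intervals of single libraries overlapped between the groups, except for erastin replicate 3 (0 to 0.0343 FPKM) and DMSO replicate 2 (0.0357 to 0.163 FPKM). The reads of a whole group, 5 under erastin and 16 under DMSO, were not tested. The log2 difference was -0.06 ± 0.02 (SE from the group variances). PC3 libraries held 0, 0 and 3 reads under erastin and 1, 1 and 0 reads under DMSO. Both PC3 groups were at or under the floor, which was 0.0307 to 0.0357 FPKM under erastin and 0.0342 to 0.0354 FPKM under DMSO, so no fold is given. The 8 stromal markers listed summed to 2.54 to 3.11 FPKM under erastin and 1.36 to 1.69 FPKM under DMSO in LNCaP, where COL1A2, DCN and FAP were at 0 in both groups. In PC3 they summed to 5.26 to 5.34 FPKM under erastin and 2.79 to 5.23 FPKM under DMSO, most of it COL1A1 (2.76 and 3.59 FPKM). Of the 8 markers in PC3, 4 were higher and 0 lower without overlap, where 71.9% of all genes kept had no overlap. They were LUM (1.14 FPKM under erastin, 0.222 under DMSO), THY1 (0.431 and 0.004), PDGFRB (0.331 and 0.138) and DCN (0.0675 and 0). In LNCaP, 2 were higher and 1 lower without overlap. The part of the stromal markers in the CXCL12 reads was not tested. Of the 3 genes, 1 passed the filter in LNCaP (ACKR3) and 2 in PC3 (ACKR3 and CXCR4).

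The genes whose pattern was most like that of ACKR3 were sought among 420 protein-coding genes kept in both lines with a log2 difference of at least 1 in size in each. Likeness was Pearson's r of log2(FPKM + 1), centred within each line, over the 12 libraries. These points share their groups of 3 libraries, and genes with 2 large differences were required, so high values follow from the choice and r describes the order only. PCNA, the sliding clamp of DNA replication, had r = 0.986, with 58.0 FPKM under erastin and 179 FPKM under DMSO in LNCaP, and 333 FPKM under erastin and 67.4 FPKM under DMSO in PC3. FAM72D (r = 0.987) and FAM72C (r = 0.984) are near-identical copies whose reads may have been split, so their values are uncertain. PSMC3IP, a partner of the recombinases in homologous pairing, had r = 0.984. For CXCR4, without a condition on size, the 5 genes most alike among 10108 were PARD6B, a cell polarity protein (r = 0.891), LIN52, a subunit of the cell cycle repressor complex DREAM (0.885), the zinc finger genes ZNF420 (0.875) and ZNF416 (0.871), and INTS12, a subunit of the Integrator complex (0.870). CXCR4 itself was under 1 FPKM in LNCaP, and within that line alone r was 0.460 for PARD6B and 0.379 for ZNF420.

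The other genes of the CXCL12 axis were 113 in 10 lists: ligands, receptors, other chemokines, receptor partners, G proteins, arrestins, sorting proteins, modifying enzymes and transcription regulators. In LNCaP, 48 were kept, of which 4 rose, 9 fell and 35 did not pass the test (limma on each line, Benjamini-Hochberg adjusted p under 0.05). That is 27.1% called, against 31.5% of all 13683 genes tested, 13.8% higher and 17.7% lower, and the median log2 difference was 0.04 over the lists and -0.020 over all genes. With replicate number as a block, 10 rose and 13 fell. Of the 13 called, 3 passed the filter through 1 group alone and so had to differ: FOXC1 and EPAS1 through erastin and CXCL10 through DMSO. Their levels are given without a p-value. The split of the 13 calls leaned less to falls under other scalings, with 10 higher and 9 lower under quantile normalization, 7 and 8 under protein-coding scaling, and 9 and 8 with limma voom on recovered reads. Over all genes the split was 1894 higher and 2418 lower in the fit reported, 2694 and 2380 under quantile normalization, 2263 and 1948 under protein-coding scaling, and 2560 and 2125 with voom. Fewer axis genes fell without LNCaP erastin replicate 1 (3), without erastin replicate 2 (4) and without DMSO replicate 2 (4).

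In LNCaP, of 16 arrestins, receptor kinases and RGS proteins, which uncouple receptors or speed GTP hydrolysis on G proteins, 10 were kept, 6 fell and none rose, with a median log2 difference of -0.51. Only 2 fell without LNCaP DMSO replicate 2, without erastin replicate 1 or without erastin replicate 2. GRK6, a kinase that phosphorylates activated receptors, measured 9.74, 9.98 and 10.2 FPKM under erastin and 15.9, 20.4 and 21.1 FPKM under DMSO, a log2 difference of -0.86 (limma, adjusted p = 0.00428). ARRB2, the arrestin that ACKR3 recruits, averaged 7.64 ± 0.637 FPKM under erastin and 13.1 ± 1.598 FPKM under DMSO (SD, n = 3 each), a log2 difference of -0.70 (limma, adjusted p = 0.00705). RGS10 fell by 0.97 (limma, adjusted p = 0.0374), but the call was lost without LNCaP DMSO replicate 2 (-1.03), erastin replicate 1 (-0.94) or erastin replicate 2 (-0.86). None of 10 sorting and degradation genes passed in the fit without the block, with TSG101 at 0.35 and USP14 at -0.31. With the replicate block TSG101, STAM2 and USP14 passed (limma, adjusted p = 0.0233, 0.0338 and 0.0227), and TSG101 also passed under quantile normalization (0.52), protein-coding scaling (0.50) and voom (0.48).

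Of 12 G protein and kinase genes kept in LNCaP, 1 passed in the fit without the block: PIK3CA, a catalytic subunit of PI3-kinase, rose by 0.72 (limma, adjusted p = 0.00445). With the block 4 rose, the others being the G protein subunits GNAI2 (0.44), GNB1 (0.34) and GNG12 (0.31) (limma, adjusted p = 0.0234, 0.0294 and 0.0373). Under quantile normalization 4 rose, under protein-coding scaling 3 and with voom 4. GNAI2 also passed without DMSO replicate 3 (0.53).

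Ligands and receptors were sparse in LNCaP. None of the 5 other atypical and 17 other conventional chemokine receptors was kept, so ACKR3 was the only chemokine receptor of these lists above the filter. CXCL10, a ligand of CXCR3, measured 0.0945, 0 and 0.240 FPKM under erastin and 2.16, 2.08 and 2.34 FPKM under DMSO, a log2 difference of -1.53. MIF, a cytokine that binds both receptors, rose by 0.50 (limma, adjusted p = 0.0441), and lost the call without erastin replicate 1 (0.49), erastin replicate 2 (0.38) and each of the 3 DMSO libraries (0.49 to 0.53). HMGB1, which forms a complex with CXCL12, fell by 0.85 (limma, adjusted p = 0.0282), and lost the call without DMSO replicate 2 (-0.95), erastin replicate 1 (-0.82) or erastin replicate 2 (-0.74). Neither receptor partner kept passed in the fit without the block: SDC4, a heparan sulphate proteoglycan, had a difference of 0.38 (limma, adjusted p = 0.056) and EGFR, described as a partner of ACKR3, of -0.08. SDC4 passed with the replicate block (limma, adjusted p = 0.0154), under quantile normalization, protein-coding scaling, voom and the joint fit of the lines, and without DMSO replicate 3 (0.44). The tyrosine sulphotransferases TPST1 and TPST2, which modify receptor amino termini, had 0.19 and 0.10 and did not pass.

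Among transcription regulators described for the 3 genes, 8 were kept in LNCaP, 2 were called higher and 1, NRF1, fell. FOXC1, a forkhead factor described as an activator of CXCR4, measured 1.73, 2.13 and 1.70 FPKM under erastin and 0.221, 0.208 and 0.284 FPKM under DMSO, a log2 difference of 1.20. EPAS1, the hypoxia-inducible factor HIF-2α, measured 1.83, 1.70 and 1.42 FPKM under erastin and 0.476, 0.473 and 0.314 FPKM under DMSO, a log2 difference of 0.90.

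In PC3, 64 of the 113 axis genes were kept, of which 16 rose, 32 fell and 16 did not pass the test. That is 75% called, against 66.4% of all 15371 genes tested, of which 34% were higher and 32.4% lower, and the median was -0.35 over the lists and 0.0019 over all genes. Of the 48 called, 6 passed the filter through 1 group alone and so had to differ: CXCL11, CCR4, CCL28 and GRK5 through erastin, and ARRB1 and RGS12 through DMSO. Those described are given without a p-value. Under protein-coding scaling 18 rose and 22 fell, while the median of all genes stood at 0.18.

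Of the 5 other ligands of ACKR3 or CXCR4, 3 were kept in PC3 and 2 of these were called higher. ADM, adrenomedullin, a vasoactive peptide that ACKR3 takes up, measured 41.9, 37.3 and 35.5 FPKM under erastin and 3.08, 3.78 and 3.18 FPKM under DMSO, a rise of 3.17 (limma, adjusted p = 8.57e-06). CXCL11, the second chemokine ligand of ACKR3, measured 1.46, 1.72 and 1.78 FPKM under erastin and 0.161, 0.0389 and 0.0399 FPKM under DMSO, a log2 difference of 1.30. HMGB1, the only other gene of that list kept, did not pass the test. Of 7 other chemokines kept, 5 fell and 1, CCL28, was called higher but passed the filter through erastin alone. The median of the 7 was -2.11. CXCL1, a neutrophil attractant and ligand of CXCR2, measured 1.33, 1.02 and 1.46 FPKM under erastin and 39.7, 35.0 and 37.2 FPKM under DMSO, a log2 difference of -4.08 (limma, adjusted p = 4.51e-06). CXCL16, a transmembrane chemokine that binds CXCR6, fell by 2.91, with means of 1.25 ± 0.151 FPKM under erastin and 16.1 ± 3.72 FPKM under DMSO (SD, n = 3 each; limma, adjusted p = 3.09e-05). CXCL8, interleukin-8, fell by 2.25 (limma, adjusted p = 0.000759), with 2.78, 3.15 and 5.22 FPKM under erastin and 32.9, 17.5 and 15.7 FPKM under DMSO.

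A single other atypical receptor and a single other conventional receptor were kept in PC3, and both were higher under erastin. CCRL2, which binds chemerin without signalling, measured 2.44, 1.94 and 2.43 FPKM under erastin and 1.27, 1.20 and 1.35 FPKM under DMSO, a rise of 0.52 (limma, adjusted p = 0.00639). CCR4, a receptor of T cells, measured 2.15, 2.03 and 1.99 FPKM under erastin and 0, 0.0687 and 0 FPKM under DMSO, a log2 difference of 1.58. Like ACKR3, CCR4 passed the filter through the erastin libraries alone. Of the 4 receptor partners kept, EGFR fell by 2.21, with 1.47, 1.72 and 1.69 FPKM under erastin and 12.8, 10.8 and 9.90 FPKM under DMSO (limma, adjusted p = 2.73e-05). CD44, a hyaluronan receptor, fell by 0.79 (limma, adjusted p = 0.00155).

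Signalling and signal-terminating genes were called lower more often than higher in PC3, and sorting genes higher more often than lower. Of 15 G protein and kinase genes kept, 1 rose and 9 fell (median -0.47). Without single libraries the falls numbered 10 (DMSO replicate 1), 6 (DMSO replicate 2), 8 (DMSO replicate 3), 5 (erastin replicate 1), 4 (erastin replicate 2) and 5 (erastin replicate 3), and under protein-coding scaling 5. The gene that rose, JAK2, lost the call when any 1 library other than DMSO replicate 1 was left out, and 4 rose without DMSO replicate 1. GNB2, a G protein beta subunit, fell by 1.32 (limma, adjusted p = 0.00778), with 37.0, 28.9 and 31.4 FPKM under erastin and 49.03, 102 and 110 FPKM under DMSO, where the lowest DMSO value is that of replicate 1. PIK3CB, a catalytic subunit of PI3-kinase, fell by 1.21 and PTK2, focal adhesion kinase, by 0.85 (limma, adjusted p = 0.0014 and 0.00151). Of 13 arrestins, receptor kinases and RGS proteins kept, 1 rose and 11 fell (median -0.96). Over all genes tested, 34% were higher and 32.4% lower. The gene that rose, GRK5, and ARRB1 and RGS12 among the falls passed the filter through 1 group alone and so had to differ. GRK2 lost its call in 10 of 16 alternatives, RGS12 in 8 of 15 and ARRB2 in 5 of 15, while the other falls kept theirs in all. RGS4 fell by 1.91, RGS19 by 1.51 and RGS10 by 1.28 (limma, adjusted p = 0.000103, 0.00917 and 9.61e-05), all 3 being proteins that shorten G protein signals. Of 10 sorting and degradation genes, all kept, 5 rose and none fell, with a median of 0.44. When 1 erastin library, DMSO replicate 2 or DMSO replicate 3 was left out, 3 rose, and without DMSO replicate 1, 7 rose and 2 fell. VPS4A (-0.35), which did not pass in the fit reported, was called lower in the joint fit of both lines. STAM2 and TSG101, members of the ESCRT machinery that sends receptors to lysosomes, rose by 1.27 and 0.73, and VPS4B, the ATPase that disassembles it, by 1.23 (limma, adjusted p = 0.00223, 0.00134 and 0.00122).

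Of 3 modifying enzymes kept in PC3, TPST1 rose by 1.13, TPST2 rose by 0.41 and DPP4, the peptidase that trims the amino terminus of CXCL12, fell by 1.10 (limma, adjusted p = 0.000255, 0.0215 and 0.00189). TPST2 lost the call when any of the 3 erastin libraries was left out (0.39 to 0.42). Of 7 transcription regulators kept, 2 rose and 4 fell. Without DMSO replicate 2, erastin replicate 1 or erastin replicate 3, 2 fell, and under protein-coding scaling 1. FOXC1 measured 48.6, 50.7 and 46.0 FPKM under erastin and 11.3, 12.5 and 11.2 FPKM under DMSO, a rise of 1.96 (limma, adjusted p = 2e-05). EPAS1 measured 2.40, 2.48 and 2.54 FPKM under erastin and 4.93, 5.39 and 4.81 FPKM under DMSO, a log2 difference of -0.80 (limma, adjusted p = 0.000694). RELA, an NF-kB subunit, fell by 0.64 (limma, adjusted p = 0.0137), and lost the call without DMSO replicate 2 (-0.54), without erastin replicate 3 (-0.60) and under protein-coding scaling (-0.43).

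**Figure D3:**
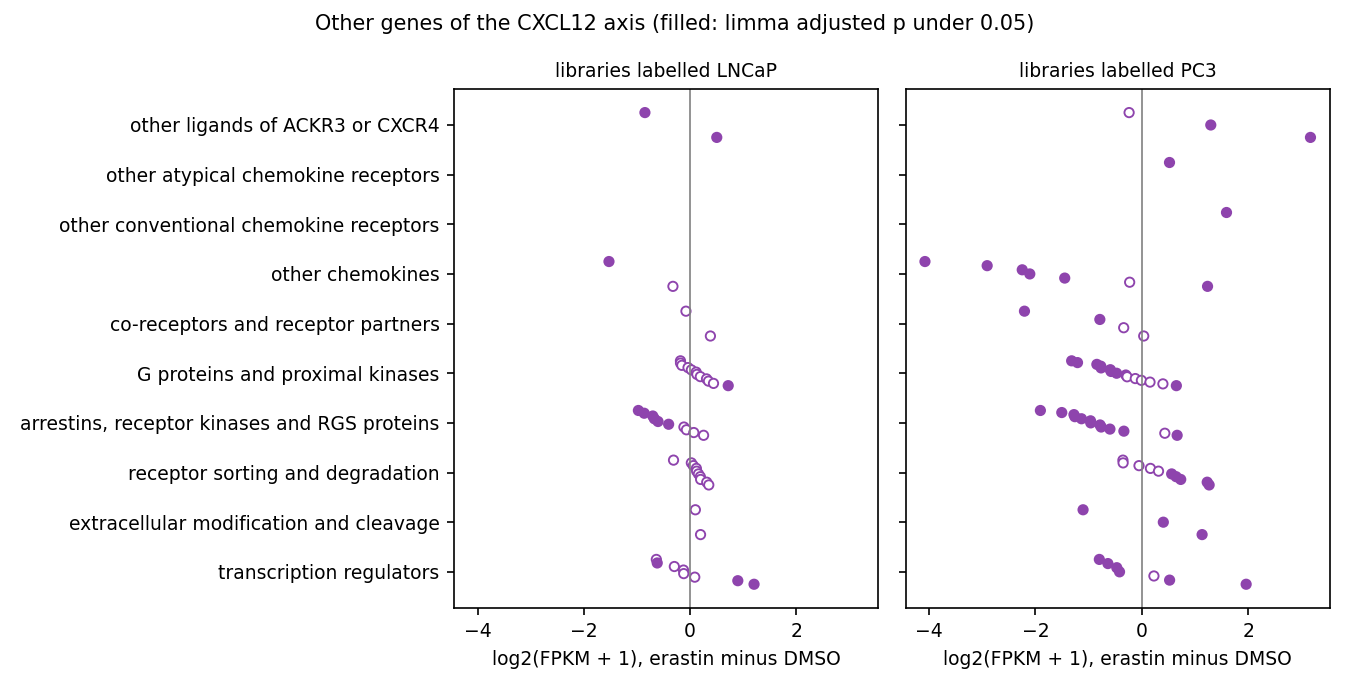
Erastin minus DMSO on the log2(FPKM + 1) scale for axis genes other than the 3 members, by list, in LNCaP (left) and PC3 (right). Each point is a gene kept in that line, filled where the limma adjusted p was under 0.05. Arrestins, receptor kinases and RGS proteins had medians of -0.51 in LNCaP and -0.96 in PC3, and sorting genes of 0.14 in LNCaP and 0.44 in PC3.

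The responses of the lines were compared for 43 axis genes kept in both, as an interaction in 1 limma fit of all 12 libraries. Of these, 17 differed between the lines, 12 with a response in LNCaP above that in PC3 and 5 below. By sign alone, 8 of the 17 ran in opposite directions, whether or not the response passed the test within a line. GNAI2 (0.44 in LNCaP, -0.28 in PC3) and VPS4A (0.20 and -0.35) passed in neither line, and of the 8 only EPAS1 was called in both. Over all 11823 genes 44.4% were called. Without PC3 DMSO replicate 1 the axis count was 29. The EPAS1 and FOXC1 responses in LNCaP rest on genes that passed the filter there through erastin alone, so no p-value is given for them. CXCL16 differed most, with -0.32 in LNCaP and -2.91 in PC3, a difference of 2.58 ± 0.23 (SE; limma, adjusted p = 4.64e-06). EGFR had -0.08 in LNCaP and -2.21 in PC3, a difference of 2.13 ± 0.30 (limma, adjusted p = 0.000141). For EPAS1, higher under erastin in LNCaP and lower in PC3, the difference was 1.69 ± 0.16 (limma SE). GNB2 had -0.18 in LNCaP and -1.32 in PC3, a difference of 1.14 ± 0.39 (limma, adjusted p = 0.033) that lost its call in 9 of 21 alternatives, without LNCaP DMSO replicates 1 or 2, LNCaP erastin replicates 1 or 3, PC3 DMSO replicates 2 or 3 and PC3 erastin replicates 2 or 3 among them (0.93 to 1.16). ADM, CXCL11, CCR4 and CCRL2 were not compared, as they were kept in PC3 alone.

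**Figure D4:**
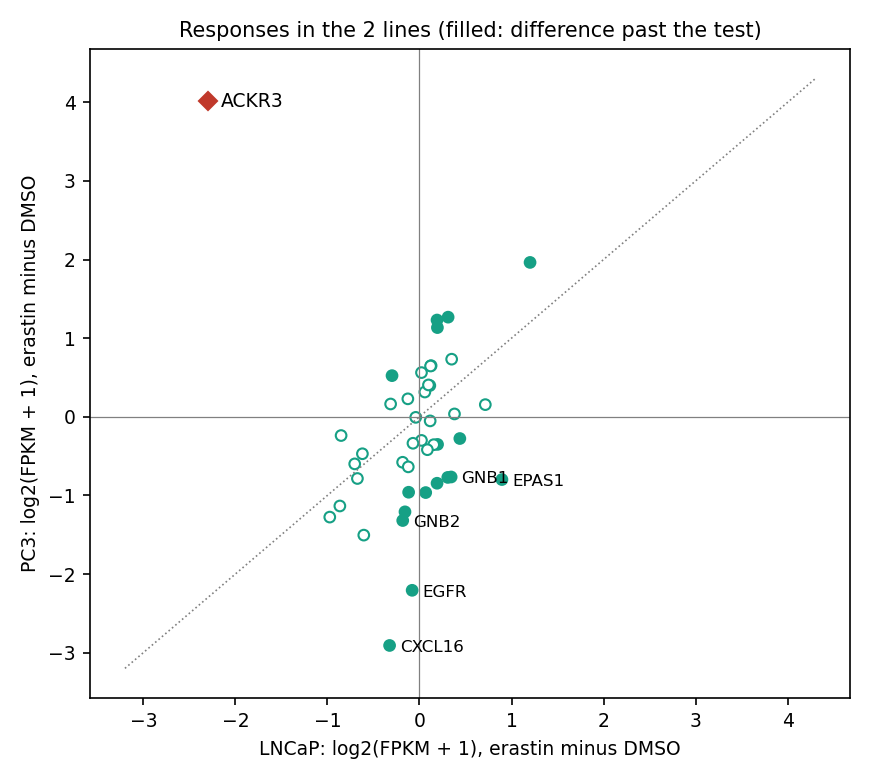
Erastin minus DMSO on the log2(FPKM + 1) scale in LNCaP (horizontal axis) against PC3 (vertical axis). Circles are the 43 axis genes kept in both lines, filled for the 17 whose limma interaction passed, and the diamond is ACKR3, untested. The dotted line marks equal responses, and ACKR3 lies at -2.30 in LNCaP and 4.01 in PC3.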

How the data were processed

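RNA-seq of 12 libraries was analysed. TRIzol extraction and Illumina TruSeq preparation are recorded per the labels' protocols, and HISAT2 (version 2.0.5) with hg38 per the submitters' processing notes. The authors deposited FPKM, fragments scaled by gene length and depth, in 1 table per line. How reads were counted (tool, strand, reads that match several genes) is not given in the sources used here, which leaves near-identical and antisense genes uncertain. FPKM multiplied by gene length gave whole reads for 100% of values, within 0.1 reads. Implied depth was 0.871 to 1.12 times (LNCaP) and 0.907 to 1.02 times (PC3) the recovered reads, so the FPKM carry a further scaling not described in those sources. No annotated gene overlaps a member. Exact 95% Poisson intervals, and the floor of 3 reads, cover counting error only.

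Values were analysed as log2(FPKM + 1), which understates changes of low genes, over genes at 1 FPKM or more in 3 or more of 6 libraries. Each line was fitted in its own table with limma 3.58.1 in R 4.3.3 (variance trend, two-sided, Benjamini-Hochberg over all genes kept, threshold 0.05), and the difference between lines in 1 fit of genes matched by identifier. The fits were checked on simulated data. Promoters came from RefSeq, where 2 of the 3 members matched. Plots used matplotlib 3.10.9. The members and lists were chosen with earlier results of these data known. Genes were named by rule: of each list and line the up to 3 largest differences past the test, or the 2 most abundant where none passed, the 4 largest line differences, and the 5 genes most like each receptor. Not every gene so named is reported here. NRF1 in PC3 and the genes near the receptors were named after their values were seen.

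Replicate numbers come from the titles. Deviations from group means of same-numbered LNCaP libraries correlated at 0.254, 0.347 and 0.744, although other numbers reached 0.612. The LNCaP counts and p-values come from a fit without pairs unless the replicate block is named. Pairing by number was run only as that alternative. In PC3 the correlations were -0.380, -0.014 and -0.312. No pair of libraries was a duplicate (lowest chi-square per degree of freedom 3.39). Alternatives covered the pseudocount, filter, scaling, limma voom on recovered reads, a replicate block, a joint fit of both lines, and leaving out each library.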

Additional observations from a re-analysis of the deposited data

Results flagged for a closer look

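All values here are the LNCaP response minus the PC3 response, on the log2(FPKM + 1) scale, each response being erastin minus DMSO. For ACKR3 this was -6.31: every LNCaP erastin library lay below every LNCaP DMSO library and every PC3 erastin library above every PC3 DMSO library. The difference was not tested, since the gene was chosen for it.

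Of 43 other axis genes compared, 17 passed the limma interaction test (Benjamini-Hochberg over all genes kept in both lines). Over all 11823 genes kept in both lines 44.4% passed, so the axis count does not stand out from all genes. The response in LNCaP was above that in PC3 for the chemokine CXCL16 (2.58), the receptor partner EGFR (2.13) and the hypoxia-inducible factor EPAS1 (1.69). Among G proteins the difference was 1.14 for GNB2, 1.11 for GNB1, 1.08 for GNG12 and 0.72 for GNAI2, and among kinases 1.05 for PIK3CB and 1.04 for PTK2. It was 1.03 for RGS14, a G protein regulator, 0.84 for ARRB1, an arrestin, and 0.55 for VPS4A, an ATPase of receptor sorting. The response in LNCaP was below that in PC3 for VPS4B (-1.04), STAM2 (-0.96), the sulphotransferase TPST1 (-0.94) and the transcription factors YY1 (-0.82) and FOXC1 (-0.76). FOXC1 turned to 0.49 with a pseudocount of 0.1 and to 0.90 with voom, and lost its call at -0.34 with a pseudocount of 0.5. EPAS1 and FOXC1 passed the expression filter in LNCaP through the erastin libraries alone, and ARRB1 in PC3 through the DMSO libraries alone. GNAI2 lost its call in 10 of 21 alternatives, GNB2 in 9 of 21, ARRB1 in 11 of 20 and VPS4A in 11 of 21, with adjusted p of at most 0.0952, 0.083, 0.0993 and 0.0947 in that order (limma).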

How the results depend on the processing

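ACKR3 kept its direction in both lines under every alternative run. Its log2 difference in PC3 (4.01) was 5.00 and 4.47 with pseudocounts of 0.1 and 0.5, 3.93 under quantile normalization, 4.17 under protein-coding scaling and 5.26 with voom, and without single libraries it ranged from 3.98 to 4.05 in PC3 and from -2.42 to -2.18 in LNCaP. CXCR4 in PC3 (0.46) was 0.70 with voom and 0.35 to 0.62 without single libraries. In LNCaP, CXCR4 (0.07) was 0.31, 0.13, 0.10 and 0.55 with a pseudocount of 0.1 or 0.5, protein-coding scaling and voom, and 0.07 to 0.09 without single libraries. CXCL12 there (-0.06) was -0.44, -0.11 and -1.87 with a pseudocount of 0.1 or 0.5 and voom, and -0.07 to -0.04 without single libraries. CXCL12 in PC3 was at the floor and was not recomputed. Higher axis genes in LNCaP (4) numbered 1 at a mean of at least 5 FPKM, 10 under quantile normalization, 7 under protein-coding scaling, 9 with voom and 10 with the replicate block, and 3 to 5 without single libraries. Lower ones (9) numbered 3 to 10. All LNCaP calls (4312) numbered 2572 at a mean of at least 5 FPKM, 6893 with the block, and 2225 to 4209 without single libraries, the lowest being without erastin replicate 1 (2225), erastin replicate 2 (2588) and DMSO replicate 2 (2721). In PC3, higher axis genes (16) numbered 9 at a mean of at least 5 FPKM, 10 with both lines in 1 fit, which tests fewer genes, and 12 to 23 without single libraries, and lower ones (32) 21 with both lines in 1 fit and 23 to 35. All PC3 calls (10214) numbered 5240 at a mean of at least 5 FPKM and 8659 to 12354 without single libraries. PC3 numbers do not pair the libraries, and the block gave 9068 calls, 12 higher and 25 lower axis genes there. Line differences among axis genes (17) numbered 36 with no filter and 13 to 29 without single libraries. The difference of FOXC1 (-0.76) was 0.49 with a pseudocount of 0.1 and 0.90 with voom. EGFR in LNCaP (-0.08, not called) was 0.045 under protein-coding scaling, 0.035 with voom and -0.31 to 0.13 without single libraries (0.085 without DMSO replicate 1, 0.13 without erastin replicate 3). Protein-coding scaling put the median of all genes at 0.10 in LNCaP and 0.18 in PC3, and voom at 0.10 and 0.13. The cause of these changes was not tested. Of 970 alternatives over 57 single-gene results, 887 kept direction and side of the threshold, 66 lost the call, 11 gained it and 6 reversed. Depth limits CXCR4 in LNCaP and CXCL12 in both lines, with at most 9 reads a library.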

Other observations

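Genes kept within 1 Mb of the receptor genes were read as well, a window chosen after seeing the data. Near ACKR3, 1 of 4 genes kept passed the test in LNCaP and 8 of 9 in PC3, against 31.5% and 66.4% of all genes tested (limma, Benjamini-Hochberg adjusted over all genes kept). The PC3 count includes AC079135.1, with 3.99 FPKM under erastin and 0 FPKM under DMSO, and RAB17. Each had a group mean under the filter's 1 FPKM, so its call may follow from the filter, and nothing is read from the count. RAB17, a small GTPase of epithelial trafficking, rose in LNCaP by 0.68, with 16.8 FPKM under erastin and 10.1 FPKM under DMSO (limma, adjusted p = 0.0059), and had 0.619 FPKM under erastin and 4.302 FPKM under DMSO in PC3, a log2 difference of -1.69, where its erastin mean was under the filter's 1 FPKM. COPS8, a subunit of the COP9 signalosome, rose in PC3 by 1.23, with 39.1 FPKM under erastin and 16.4 FPKM under DMSO (limma, adjusted p = 0.00092). MLPH, melanophilin, fell in PC3 by 2.57, with 3.24 FPKM under erastin and 24.2 FPKM under DMSO (limma, adjusted p = 1.98e-05), and GBX2, a homeobox gene, fell by 1.92 (limma, adjusted p = 0.000226).

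Near CXCR4, 4 of 6 genes kept passed the test in LNCaP and 4 of 5 in PC3, against the same shares of 31.5% and 66.4% over all genes. The LNCaP count includes ZRANB3, with 0.552 FPKM under erastin and 1.63 FPKM under DMSO. Its erastin mean was under the filter's 1 FPKM, so nothing is read from this count either. MCM6, a subunit of the replicative helicase, fell in LNCaP by 1.26, with 9.50 FPKM under erastin and 24.2 FPKM under DMSO (limma, adjusted p = 0.00183), and rose in PC3 by 0.33, with 22.7 FPKM under erastin and 17.9 FPKM under DMSO (limma, adjusted p = 0.0306).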
